A study of Mus musculus with 11 samples.

Results

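The 10 transcripts followed here mark T and natural killer (NK) cells in textbooks and were measured by RNA-seq in macrophages sorted from mouse mammary tumours. They are Cd3d, Cd3e, Cd3g, Cd2, Lck, Cd8a, Cd4, Il7r, Gzmb and Nkg7, chosen by gene symbol, and all 10 were found among the 17475 genes of the authors' log expression table. There were 11 libraries from 6 female mice. MYC TAMs had 3 libraries (mice 2, 4 and 6), MYC MTMs had 2 (mice 2 and 4), and control TAMs and control MTMs had 3 each (mice 1, 3 and 5). All mice, backcrossed to B6, carried the PyMT transgene, which gives rise to tumours of the mammary gland. The MYC mice in addition had the genotype S100a8-cre Rosa26-LSL-MYC, in which Cre under the S100a8 promoter switches on a MYC transgene. Mice of both genotypes were lethally irradiated at 7 weeks of age, received bone marrow cells of WT B6 mice, and were put on a low protein diet 2 weeks later for 6 weeks. Donor marrow was therefore wild type in both genotypes, the share of host cells that remained is not given in the sources used here, and no library came from another diet.

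TAMs are the tumour-associated macrophages of the parenchyma and MTMs the mammary tissue macrophages of the stroma. Per the labels, both were sorted as live CD45+ cells negative for SiglecF, Ly6G, B220 and Ly6C and positive for F4/80, with Vcam+ cells taken as TAMs and Vcam- FOLR2+ cells as MTMs. The stated gate excludes B cells through B220 but names no T or NK cell marker. RNA integrity numbers were given as 3.3 to 9.6 for the series and not by library.

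T cells recognise antigen through a receptor whose signal is carried by the CD3 chains, with CD4 or CD8 as coreceptor and the kinase LCK bound to the coreceptor tail. Cytotoxic T cells and NK cells kill targets with granules that hold granzymes. NK cells lack a surface CD3 complex. Some genes named after lymphocytes are also transcribed in myeloid cells. In bulk RNA, fewer cells of a type and less RNA per cell cannot be told apart, and neither can a few lymphocytes among the sorted cells and a low level in every macrophage.

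The 3 CD3 genes lie together on chromosome 9 (GENCODE M21 annotation of GRCm38). Cd3g lies at chr9:44969572-44980431 on the minus strand, Cd3d at chr9:44981786-44987339 on the plus strand and Cd3e at chr9:44998740-45009627 on the minus strand. Cd3g and Cd3d are transcribed away from each other from starts 1355 bases apart. The start regions of the 3 genes are shown because their transcripts moved together across the libraries, and that of Il7r because it moved the other way. Each window runs from 250 bases before to 50 bases after the start, 5′ to 3′ on the gene's strand, from RefSeq on GRCm38.p6. For Il7r the RefSeq start differs from the GENCODE M21 start at chr15:9530176, so its whole window lies inside the gene as GENCODE annotates it. Capitals mark the letters TGTGGT (a core that RUNX factors bind) and GAGGAA (a core bound by ETS factors such as PU.1), searched on both strands, so that a GAGGAA on the other strand reads TTCCTC.
Cd3d promoter, chr9:44981536-44981835, plus strand: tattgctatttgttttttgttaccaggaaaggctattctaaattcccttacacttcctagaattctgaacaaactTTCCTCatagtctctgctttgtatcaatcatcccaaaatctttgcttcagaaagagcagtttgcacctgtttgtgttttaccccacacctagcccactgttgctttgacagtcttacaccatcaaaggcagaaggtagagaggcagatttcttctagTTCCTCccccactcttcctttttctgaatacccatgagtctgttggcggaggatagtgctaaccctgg
Cd3g promoter, chr9:44980382-44980681, minus strand: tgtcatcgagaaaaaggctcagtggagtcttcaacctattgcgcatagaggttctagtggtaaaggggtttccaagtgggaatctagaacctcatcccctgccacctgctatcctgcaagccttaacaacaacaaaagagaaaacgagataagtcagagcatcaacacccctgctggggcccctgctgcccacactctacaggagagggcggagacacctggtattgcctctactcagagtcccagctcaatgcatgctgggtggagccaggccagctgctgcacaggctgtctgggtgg
Cd3e promoter, chr9:45009562-45009861, minus strand: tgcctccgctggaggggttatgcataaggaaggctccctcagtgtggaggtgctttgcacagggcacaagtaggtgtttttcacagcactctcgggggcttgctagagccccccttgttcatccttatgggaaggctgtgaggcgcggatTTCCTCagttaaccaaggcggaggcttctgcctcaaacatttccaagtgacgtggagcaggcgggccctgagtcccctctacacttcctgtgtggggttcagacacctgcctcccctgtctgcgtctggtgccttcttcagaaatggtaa
Il7r promoter, chr15:9529827-9530126, minus strand: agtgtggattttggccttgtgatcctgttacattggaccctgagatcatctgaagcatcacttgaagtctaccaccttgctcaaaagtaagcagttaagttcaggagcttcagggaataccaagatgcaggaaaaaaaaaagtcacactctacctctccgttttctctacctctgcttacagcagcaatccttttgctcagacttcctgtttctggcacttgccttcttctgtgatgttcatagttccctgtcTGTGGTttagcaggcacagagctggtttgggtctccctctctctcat
GAGGAA was present 2 times in the Cd3d window and 1 time in that of Cd3e. TGTGGT was present 1 time in the Il7r window, and neither motif was in the Cd3g window. RefSeq windows were held for 8 of the 10 genes, with 4 holding TGTGGT and 4 holding GAGGAA. Over all 32851 windows of this length, 16.8% held TGTGGT and 28.3% held GAGGAA. These matches describe the letters and not binding.

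Values are on the authors' log2 scale, which behaved as the log2 of a depth-scaled read number per gene length plus 1.0003. Where a linear level is named, this logarithm and offset were undone. Read numbers are estimates from the even spacing of low values, could be 1 too high, and cover counting error only, and those of Lck, Cd4 and Il7r rest on exon lengths. An estimated 22500000 to 29100000 reads per library fell in genes. The library of MYC TAM mouse 4 stood apart, with 619 genes at the lowest value and a relative depth of 0.911, against 2120 to 3822 genes and 1.05 to 1.17 in the others. The sorted cells carried macrophage transcripts: Csf1r, Emr1 (F4/80), Mertk and Cd68 summed to a linear level of 1804 to 1858 in MYC TAMs, 2704 to 2736 in MYC MTMs, 2356 to 3103 in control TAMs and 2169 to 2397 in control MTMs. RNA of the gate gene Vcam1 overlapped between MYC TAMs (0.96, 1.61 and 2.82) and MYC MTMs (2.32 and 2.31), though the sort used the surface protein. MYC TAM mouse 6 lay above both MYC MTM libraries, and MYC TAM mice 2 and 4 lay below them. Vcam1 was at 8.60, 7.64 and 8.57 in control TAMs and 5.31, 6.86 and 5.25 in control MTMs. Folr2 separated TAMs from MTMs in both genotypes.

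The 10 transcripts fell into 4 patterns across the groups. Cd3d, Cd3e, Cd3g, Lck, Cd8a, Gzmb and Nkg7 were highest in control TAMs, intermediate in control MTMs, and lowest on average in the 2 MYC groups. Of these 7, all but Lck stood at their lowest value in some MYC library. Cd4 had its highest mean in control TAMs and its lowest in MYC MTMs. Cd2 was highest in control MTMs, and Il7r was highest in MYC TAMs.

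**Figure D1:**
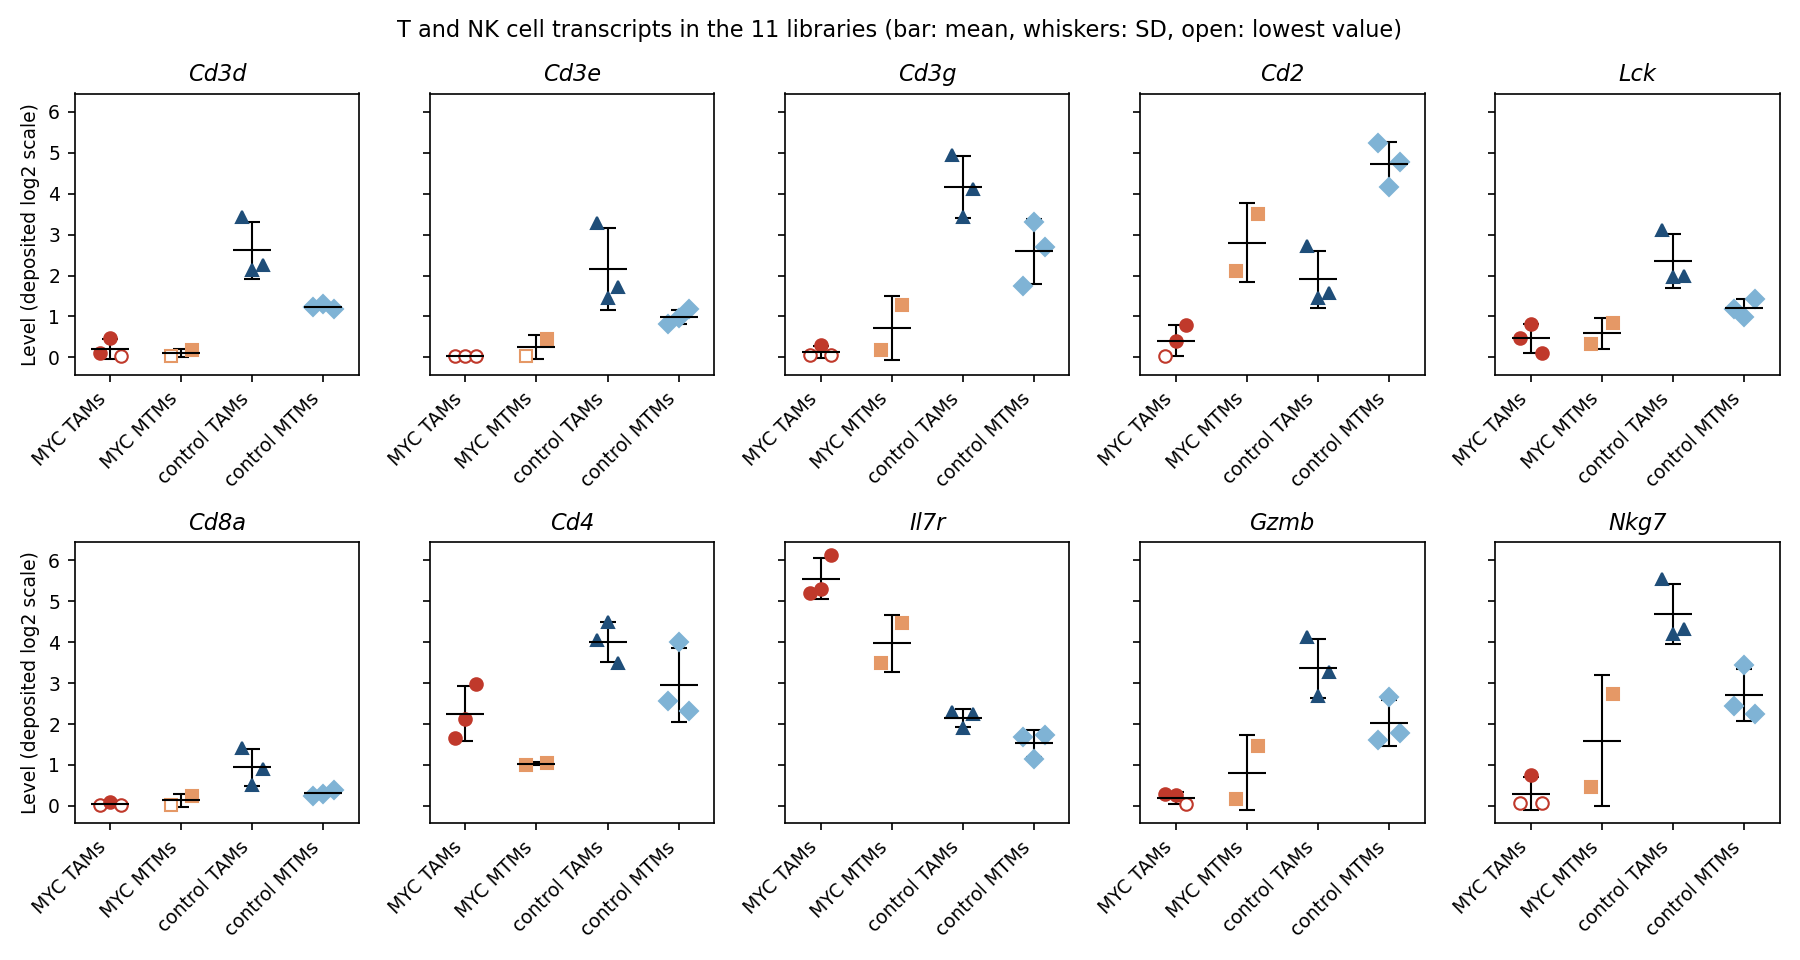
Level of each of the 10 transcripts (vertical axis, deposited log2 scale) in every library of the 4 groups, with the group mean and SD; open symbols are libraries at the gene's lowest value. The CD3 genes, Lck, Cd8a, Gzmb and Nkg7 are highest in control TAMs, Cd2 in control MTMs and Il7r in MYC TAMs.

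The CD3 genes encode the delta, epsilon and gamma chains. Cd3d was at 0.10, 0.48 and 0.04 in MYC TAMs, 0.04 and 0.17 in MYC MTMs, 3.42, 2.15 and 2.27 in control TAMs and 1.23, 1.31 and 1.19 in control MTMs. Cd3e stood at its lowest value of 0.04 in all 3 MYC TAM libraries, at 0.04 and 0.45 in MYC MTMs, at 3.30, 1.46 and 1.72 in control TAMs and at 0.82, 0.97 and 1.17 in control MTMs. Cd3g was at 0.05, 0.30 and 0.05 in MYC TAMs, 0.17 and 1.28 in MYC MTMs, 4.94, 3.44 and 4.13 in control TAMs and 1.74, 3.32 and 2.71 in control MTMs. For each chain every MYC library lay below every control library. In reads, Cd3e had 0 in each MYC TAM library, 0 and 16 in the MYC MTM libraries, 364, 76 and 96 in control TAMs and 32, 42 and 51 in control MTMs. A count of 0 was taken to allow up to 3 reads, a set limit under the 3.69 at which its exact Poisson 95% interval ends. With 3 reads in each MYC TAM library as the bound, the linear level of Cd3e was 58.5-fold lower than the control TAM mean. The spread of control TAMs does not enter this bound. The 16 reads of MYC MTM mouse 4 had an exact Poisson 95% interval of 9.15 to 26.0. Cd3e overlaps an antisense gene, Gm48719, and a tentative gene model, Gm48720, on its own strand. The library kit was stranded but strand use in counting is not given in the sources used here, so reads of these partners cannot be told apart.

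Lck (chr4:129548344-129573641, minus strand), the kinase that starts T cell receptor signalling, was at 0.47, 0.82 and 0.11 in MYC TAMs, 0.32 and 0.85 in MYC MTMs, 3.12, 1.97 and 1.98 in control TAMs and 1.18, 0.99 and 1.43 in control MTMs. Cd8a (chr6:71373427-71379173, plus strand), the coreceptor chain of cytotoxic T cells, had the lowest mean of the 10, at 0.02, 0.09 and 0.02 in MYC TAMs, 0.02 and 0.25 in MYC MTMs, 1.41, 0.52 and 0.90 in control TAMs and 0.25, 0.28 and 0.38 in control MTMs. The MYC MTM and control MTM libraries overlapped for Cd8a at 0.25. Its partner chain Cd8b1, named after its values were seen, was at 2.80, 1.79 and 1.91 in control TAMs.

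Gzmb (chr14:56258838-56262260, minus strand) encodes granzyme B, the protease of cytotoxic granules, and Nkg7 (chr7:43437073-43438249, plus strand) a granule membrane protein of cytotoxic T and NK cells. Gzmb was at 0.29, 0.26 and 0.04 in MYC TAMs, 0.16 and 1.46 in MYC MTMs, 4.13, 2.69 and 3.27 in control TAMs and 1.61, 2.66 and 1.78 in control MTMs. Nkg7 was at 0.06, 0.76 and 0.06 in MYC TAMs, 0.46 and 2.73 in MYC MTMs, 5.54, 4.20 and 4.32 in control TAMs and 2.44, 3.43 and 2.26 in control MTMs. For Nkg7 the MTM libraries of the genotypes overlapped, because MYC MTM mouse 4, with 149 reads, lay above 2 of the 3 control MTM libraries, with 113 and 94. Control TAM mouse 1 was the highest library of the 11 for all 3 CD3 genes, Lck, Cd8a, Gzmb and Nkg7.

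Cd4 (chr6:124864692-124888221, minus strand), the coreceptor of helper T cells, followed the CD3 genes only in part (Pearson's r of 0.76 to their mean over the 11 libraries). It was at 1.67, 2.13 and 2.97 in MYC TAMs, 1.01 and 1.06 in MYC MTMs, 4.05, 4.48 and 3.50 in control TAMs and 2.57, 4.00 and 2.32 in control MTMs. MYC TAM mouse 6, with no read of Cd3d, Cd3e or Cd3g, had about 675 reads of Cd4, and no library of the series had fewer than about 95. Neighbouring groups overlapped except MYC TAMs and MYC MTMs.

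Cd2 (chr3:101275899-101287939, minus strand), an adhesion receptor that T and NK cells use to bind partner cells, was at 0.03, 0.41 and 0.79 in MYC TAMs, 2.12 and 3.49 in MYC MTMs, 2.71, 1.46 and 1.57 in control TAMs and 5.24, 4.17 and 4.77 in control MTMs. Every MTM library was above every TAM library of the same genotype, the opposite order to that of the CD3 genes in control mice. MYC MTMs and control TAMs overlapped.

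Il7r (chr15:9505788-9530176, minus strand) encodes the alpha chain of the interleukin-7 receptor, which naive and memory T cells need for survival. It was at 5.21, 5.31 and 6.14 in MYC TAMs, 3.48 and 4.46 in MYC MTMs, 2.30, 1.90 and 2.25 in control TAMs and 1.69, 1.15 and 1.73 in control MTMs. No 2 groups overlapped, and the order was MYC TAMs, MYC MTMs, control TAMs and control MTMs. MYC TAM mouse 6 had the most Il7r reads, about 7792, and no CD3 read.

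Levels per gene length were set against the mean of Cd3d, Cd3e and Cd3g in the same library, as linear ratios. In the 6 control libraries some members kept a narrow proportion to the CD3 genes. Gzmb ranged from 0.908 to 1.40 times the CD3 mean, Cd8a from 0.0574 to 0.125, and Nkg7 from 1.41 to 3.48. Lck ranged from 0.261 to 0.851. Cd2 ran from 0.260 to 0.351 in control TAMs but from 4.49 to 24.8 in control MTMs, a range of 95.3-fold over the control libraries. Cd4 ranged from 0.972 to 4.28 and Il7r from 0.243 to 1.50. In MYC MTM mouse 4, the MYC library with the highest CD3 mean, Il7r was 32.8 times the CD3 mean, Cd2 16.1 times, Nkg7 8.77 times, Gzmb 2.73 times, Cd4 1.69 times, Lck 1.25 times and Cd8a 0.297 times. Nkg7, Gzmb, Lck and Cd8a were there above their range in the control libraries. The CD3 mean of that library rests on 5 reads of Cd3d, 16 of Cd3e and 46 of Cd3g. The CD3 level of MYC TAMs was too close to the lowest value for such ratios to be read.

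**Figure D2:**
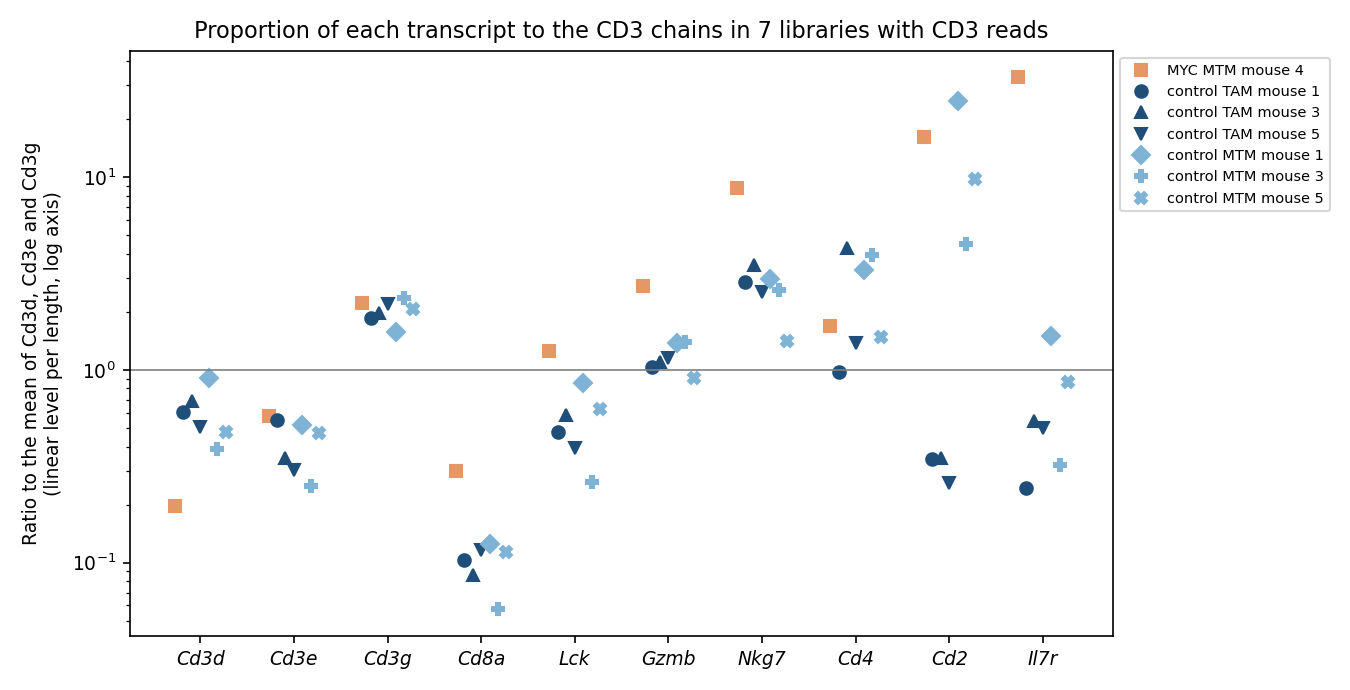
Ratio of each transcript to the mean of Cd3d, Cd3e and Cd3g (vertical log axis, linear levels per length) in MYC MTM mouse 4, control TAMs and control MTMs. Gzmb spans 1.54-fold and Cd8a 2.18-fold in the control libraries, whereas Cd2 spans 95.3-fold and Il7r is highest in MYC MTM mouse 4.

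Differences were tested with limma over all 17475 genes, with Benjamini-Hochberg adjustment and a threshold of 0.05. They are log2 differences ± SE on the deposited scale, which understates the change of low genes. Libraries of a group came from different mice.

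MYC against control in TAMs had the most calls. Of the 10 transcripts, 8 fell and 1 rose in MYC TAMs, where 12% of all genes fell and 3.89% rose, 15.9% in all. Centring each library on its median gene moved this comparison by 0.21 and turned the split of all calls from 680 higher and 2098 lower to 3516 higher and 1513 lower, but left 9 of the 10 transcripts called. Nkg7 fell by 4.40 ± 0.59 (adjusted p = 0.00120), Cd3g by 4.04 ± 0.48 (adjusted p = 0.000586) and Gzmb by 3.17 ± 0.45 (adjusted p = 0.00149). Of the other CD3 chains, Cd3d fell by 2.41 ± 0.31 (adjusted p = 0.000869) and Cd3e by 2.12 ± 0.40 (adjusted p = 0.00690). The value of Cd3e depends on the offset because no MYC TAM library had a read. Lck fell by 1.89 ± 0.33 (adjusted p = 0.00493), Cd4 by 1.76 ± 0.47 (adjusted p = 0.0334) and Cd8a by 0.90 ± 0.18 (adjusted p = 0.00964). Il7r rose by 3.41 ± 0.32 (adjusted p = 0.000162). Cd2 was lower by 1.51 ± 0.46 and missed the threshold (adjusted p = 0.0544), passing with the mouse as a random block (adjusted p = 0.0475). The MYC TAM and control TAM libraries did not overlap for any of the 10, with 9 lower in MYC TAMs, where 22.1% of all genes were lower without overlap, and 1 higher, where 8.03% were. The median difference of the 10 was -2.00, or -2.15 with Cd3e at its bound, beside -0.02 over all genes. Without MYC TAM mouse 4, 8 of the 10 passed; the call of Cd4 was lost (adjusted p = 0.108), as it was without MYC TAM mouse 2 (0.110), control TAM mouse 1 (0.0804) or 3 (0.127), or either MYC MTM library (0.0547 and 0.0546).

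In MTMs, the same contrast of genotypes called 1 of the 10, where 0.618% of all genes were called, 0.338% higher and 0.28% lower. Il7r rose in MYC MTMs by 2.45 ± 0.36 (adjusted p = 0.0206), and this was lost without MYC TAM mouse 4 (0.0520), MYC MTM mouse 4 (0.179) or control MTM mouse 3 (0.0686) or 5 (0.0689). The other 9 differences were negative, from -1.93 ± 0.53 for Cd4 to -0.17 ± 0.21 for Cd8a, with 6 of the 10, Il7r included, under an unadjusted p of 0.05, where 10.1% of all genes were. For 7 of these 9 the libraries did not overlap, where 20.1% of all genes were lower without overlap, and Il7r was higher without overlap, as 11.1% of all genes were. The median difference of the 10 was -1.13, beside -0.02 over all genes. Cd3d alone passed when a library was left out, without control TAM mouse 1 (adjusted p = 0.0381).

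**Figure D3:**
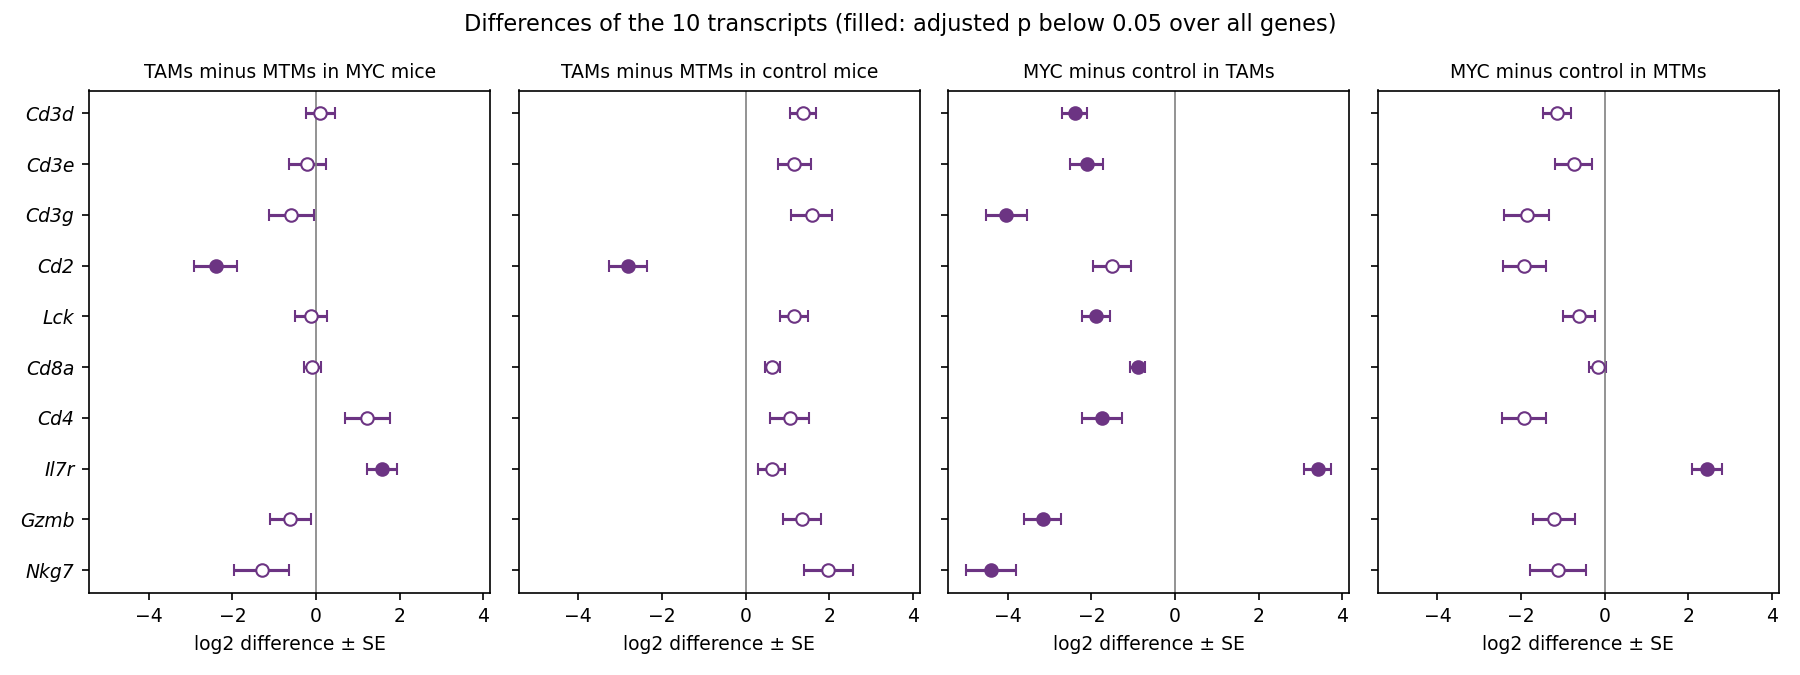
Log2 differences ± SE of the 10 transcripts from limma in 4 comparisons (horizontal axis, deposited scale); filled points passed an adjusted p of 0.05. In TAMs, 9 of 10 passed between MYC and control, with Il7r alone higher, whereas Cd2 was lower in TAMs than in MTMs in both genotypes.

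TAMs against MTMs in MYC mice called 2 of the 10, where 4.49% of all genes were called, 0.664% higher and 3.82% lower. Cd2 fell in MYC TAMs by 2.40 ± 0.51 (adjusted p = 0.0316) and Il7r rose by 1.58 ± 0.36 (adjusted p = 0.0398). Both rested on few libraries. For Cd2, the adjusted p was 0.0879 when mouse 2 was left out of MYC TAMs, 0.0914 for mouse 4, 0.0541 for MYC MTM mouse 2, 0.273 for MYC MTM mouse 4 and 0.0581 for control MTM mouse 5. Il7r was lost without any 1 library other than control MTM mouse 3 (adjusted p from 0.0542 to 0.342). It was also lost with the mouse as a fixed block (0.0642), in which mouse 6, without an MTM library in the series, adds nothing. Without MYC TAM mouse 4 neither passed. The Cd4 libraries of MYC TAMs lay above those of MYC MTMs, by 1.23 ± 0.53 (adjusted p = 0.282). Cd4 and Il7r were higher without overlap, where 6.82% of all genes were, and Cd2 was lower, where 23.5% were. The CD3 genes, Lck, Cd8a, Gzmb and Nkg7 overlapped between MYC TAMs and MYC MTMs. The median difference of the 10 was -0.16, beside -0.01 over all genes.

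TAMs against MTMs in control mice called 1 of the 10, where 2.37% of all genes were called, 0.744% higher and 1.63% lower. Cd2 fell in control TAMs by 2.82 ± 0.46 (adjusted p = 0.0118); leaving out 1 library ended this call for control MTM mouse 1 (0.0584) and 5 (0.0565) and for control TAM mouse 3 (0.0534) and 5 (0.0523). The other 9 differences were positive, with 8 of the 10, Cd2 included, under an unadjusted p of 0.05, where 11.8% of all genes were. Nkg7 was higher by 1.98 ± 0.59 (adjusted p = 0.157), Cd3g by 1.58 ± 0.48 (adjusted p = 0.166) and Cd3d by 1.37 ± 0.31 (adjusted p = 0.0540). Cd3d passed with the mouse as a random block (adjusted p = 0.0351) and without control TAM mouse 1 (0.0358) or 3 (0.0478), and Cd8a passed without control TAM mouse 3 (0.0259). For 8 of the 9 the control TAM libraries lay above all control MTM libraries, where 6.9% of all genes did so. The median difference of the 10 was 1.16, beside -0.0038 over all genes. Cd4 overlapped, and Cd2 was lower without overlap, where 12% were.

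Whether the difference between TAMs and MTMs depended on genotype was tested as a difference of differences, MYC minus control. None of the 10 passed (limma), where 1.24% of all genes passed, 0.24% higher and 0.996% lower. Under an unadjusted p of 0.05 there were 7 of the 10, where 10.9% of all genes were. The largest were Nkg7 at -3.28 ± 0.89 (adjusted p = 0.147) and Cd3g at -2.17 ± 0.72 (adjusted p = 0.256). Cd2 was at 0.42 ± 0.69 (adjusted p = 0.835).

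Gene lists of the T and NK lineage, drawn up with earlier results known, were counted in the same fit. Their counts in MYC TAMs against control TAMs stand beside 12% of all genes lower and 3.89% higher, a split that median centring turned round, as given above. Of 26 measured genes of the T cell receptor complex and its signalling, 15 fell and 0 rose in MYC TAMs relative to control TAMs, with a median of -0.86. The smallest adjusted p were those of Cd3g, Cd3d and the adaptor Lcp2, the last at 5.31 in MYC TAMs and 6.32 in control TAMs, a level far above the CD3 genes. Among the 11 genes not called, Lat was at -0.20 ± 0.30 and Cd5 at -0.08 ± 0.22. Cd28, at 0.56 ± 0.24, had the only positive difference of this list. Of 12 cytotoxic effectors 7 fell and 0 rose (median -0.65), led by Nkg7, Gzmb and Ctsw, which encodes cathepsin W (-2.60 ± 0.42, adjusted p = 0.00291). Of 11 T lineage transcription factors 5 fell and 0 rose (median -0.19). Gata3 was at -2.47 ± 0.54 (adjusted p = 0.0129), Tbx21 at -0.45 ± 0.09 and Runx3 at -0.81 ± 0.18. The levels of Gata3 were 1.85, 4.14 and 2.22 in control TAMs and 2.31, 2.91 and 3.29 in control MTMs (-0.10 ± 0.54). Its highest library was control TAM mouse 3, as for the epithelial gene Epcam (7.98), and not mouse 1, the highest for the CD3 genes. Which cells gave the Gata3 RNA was not tested. Of 21 homing, cytokine and costimulatory receptors 12 fell and 1, Il7r, rose (median -0.85). Within this list Il21r fell by 2.72 ± 0.17 (adjusted p = 2.06e-05) and Il2ra, the alpha chain of the interleukin-2 receptor, by 3.42 ± 0.27 (adjusted p = 6.69e-05). Between TAMs and MTMs of control mice, the receptor complex list had 0 higher and 1 lower (Cd2), the cytotoxic list 0 in either direction (12 of 12 positive), the transcription factors 2 higher (Tbx21 and Runx3) and the homing receptors 2 higher (Il2ra and Tigit). Over all genes, 0.744% were higher and 1.63% lower in that comparison.

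Summed markers of 6 cell types were set beside these transcripts. The T cell sum holds Cd3d, Cd3e and Cd3g themselves, so its pattern partly repeats the values given above. The 7 defining T cell genes (Cd3d, Cd3e, Cd3g, Cd247, Trac, Trbc1 and Trbc2) summed to a linear level of 0.407, 1.76 and 0.167 in MYC TAMs, 0.309 and 2.53 in MYC MTMs, 56.1, 17.6 and 26.5 in control TAMs and 5.69, 12.7 and 9.47 in control MTMs. Up to 6 of the 7 stood at their lowest value in a MYC TAM library and up to 5 in a MYC MTM library, against 0 in every control library. Apart from Cd3d, Cd3e and Cd3g, the differences between MYC and control TAMs were smaller or similar (limma). Trac was not called (-0.44 ± 0.15, adjusted p = 0.0732). Trbc2 fell by 1.64 ± 0.28 (adjusted p = 0.00437), Trbc1 by 0.83 ± 0.25 (adjusted p = 0.0482) and Cd247 by 0.28 ± 0.07 (adjusted p = 0.0273). The defining NK cell genes Ncr1 and Klrb1c summed to 0.0886 to 0.548 in MYC TAMs, 0.306 to 0.706 in MYC MTMs, 0.292 to 0.690 in control TAMs and 0.144 to 0.429 in control MTMs. Both genes were low, with Ncr1 at its lowest value in 4 libraries. Other NK receptor genes differed more and in both directions. Klrd1 was at 0.04 in each MYC TAM library and 1.64, 0.85 and 0.85 in control TAMs. Il2rb was at 0.02, 0.10 and 0.02 against 2.48, 1.08 and 1.52, whereas Klra3 and Klra9 were higher in MYC TAMs, as given below. The B cell genes Ms4a1 and Cd79a summed to 0.0801 to 0.297 in MYC TAMs, 0.130 to 0.463 in MYC MTMs, 0.315 to 0.857 in control TAMs and 0.225 to 0.427 in control MTMs. Neutrophil genes (S100a8 and S100a9) summed to 72.2, 22.7 and 32.9 in MYC TAMs, 11.2 and 8.03 in MYC MTMs, 13.5, 10.5 and 4.80 in control TAMs and 10.7, 8.61 and 2.06 in control MTMs. Mammary epithelial genes (Epcam, Krt8 and Krt18) summed to 271, 90.5 and 16.0 in MYC TAMs, 238 and 280 in MYC MTMs, 360, 888 and 443 in control TAMs and 262, 608 and 424 in control MTMs. The T cell, B cell and epithelial sums were lower in each MYC TAM library than in each control TAM library, and the sum of S100a8 and S100a9 was higher. The B cell sums were low and lay close, at most 0.297 against at least 0.315. All 11 measured neutrophil genes together summed the other way, to 75.5 to 147 in MYC TAMs and 174 to 294 in control TAMs. They include Ltf, which is also on the epithelial list. The sum of S100a8 and S100a9 was nearly all S100a8, whose promoter drives the Cre of the MYC mice. The 3 MYC TAM libraries had S100a8 levels of 6.18, 4.52 and 5.07, against 3.82, 3.44 and 2.52 in the control TAM libraries. For S100a9 the MYC TAM libraries (0.57, 0.77 and 0.38) overlapped the control TAM libraries (0.42, 0.71 and 0.10). Of the macrophage markers, Csf1r fell by 2.57 ± 0.20 (adjusted p = 6.34e-05) and Emr1 by 1.81 ± 0.26 (adjusted p = 0.00148) in MYC TAMs relative to control TAMs, while Cd68 rose by 1.95 ± 0.15 (adjusted p = 6.61e-05). Of 17 measured epithelial genes, 8 fell in MYC TAMs relative to control TAMs and 0 rose, and of 14 dendritic cell genes 8 fell and 0 rose. Over all genes, 12% fell and 3.89% rose there, a split that median centring turned round. The epithelial and dendritic cell genes were set beside the transcripts only as a description. The part of these other cell types in the results on the T and NK cell transcripts was not tested.

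**Figure D4:**
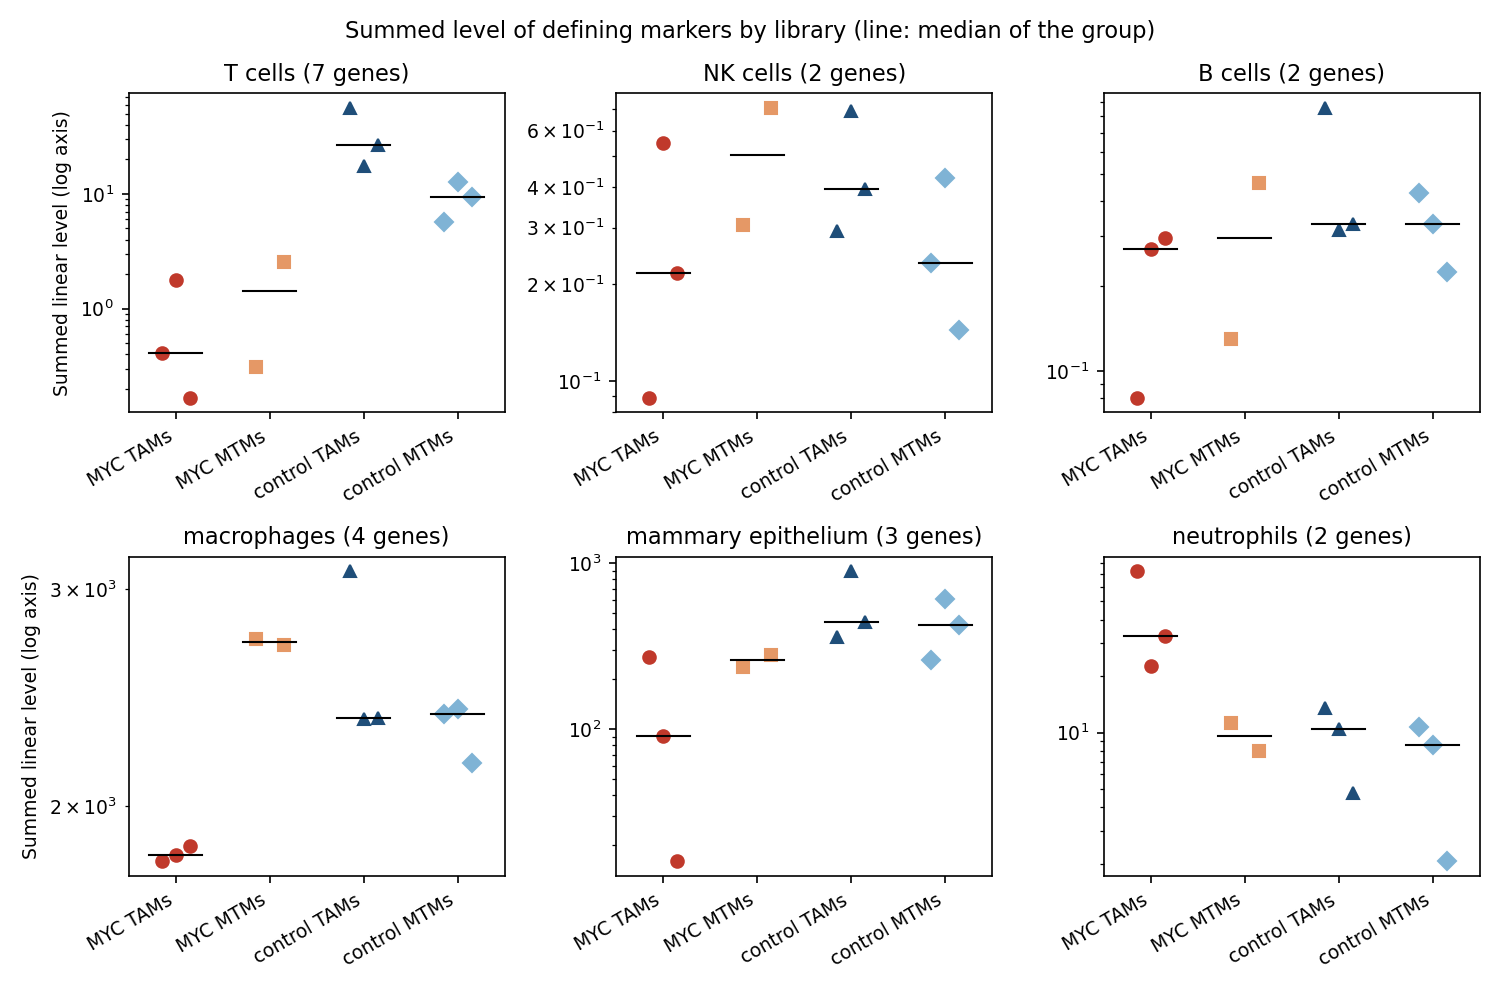
Summed linear level (vertical log axis, 1 point per library, line at the group median) of defining markers of 6 cell types in the 4 groups. T cell markers, which include Cd3d, Cd3e and Cd3g, reach at most 2.53 in the MYC libraries and at least 5.69 in the control libraries. The macrophage sums, whose members differed in direction between MYC and control TAMs, lie between 1804 and 3103.

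Likeness to the CD3 genes was described by Pearson's r over the 11 libraries among 8746 genes with a mean level of 1 or more. The libraries share mice and fall into 4 groups, so r mostly reflects group means. The 10 genes most like the mean of Cd3d, Cd3e and Cd3g were Cd7 (0.98), Gzmb (0.98), Oplah (0.97), Gdf3 (0.96), Lck (0.96), Abi3 (0.96), Nkg7 (0.95), Ppfia4 (0.95), Npnt (0.95) and Ccdc102a (0.95). Cd8a, whose mean was under 1, had 0.95, Cd4 0.76, Cd2 0.31 and Il7r -0.73. Nearest to Gzmb were Cd3g (0.99), Nkg7 (0.98), Eva1b, Cd86 and Gpr65 (0.96 each). Cd2 was nearest to Mgl2 (0.98), Hfe (0.97), Emr4 (0.96), Clec4b1 (0.96) and Retnla (0.95). Mgl2 encodes a macrophage lectin and Retnla a protein of alternatively activated macrophages. Cd209a, on the dendritic cell list, was lower in TAMs than in MTMs, as Cd2 was (limma). Its difference was -4.64 ± 0.51 in control mice (adjusted p = 0.00135) and -2.79 ± 0.57 in MYC mice (adjusted p = 0.0258). Of the 14 genes on that list, 1 was higher and 1 lower in control mice, and 0 were higher and 2 lower in MYC mice. Over all genes these shares were 0.744% and 1.63%, and 0.664% and 3.82%. Which cells gave the Cd2 RNA was not tested. Cd4 was nearest to Abhd6 (0.94), Liph, Pdzk1ip1 (0.93 each), Alkbh2 and Ubap1 (0.92 each). For Il7r, a likeness added after its values were seen, the nearest were Rragd, Rilpl2, Gla, Mcoln3 (0.98 each) and Tecpr1 (0.97). Rragd encodes a Rag GTPase of the lysosomal surface, Gla a lysosomal galactosidase and Mcoln3 a channel of endosomes and lysosomes.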

How the data were processed

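Polyadenylated RNA (500 ng) of sorted macrophages was sequenced after 8 PCR cycles with a stranded kit, per the labels' protocols. The submitters' processing notes name HISAT2, DESeq2 and the builds mm10 and GRCm38.p5, with no role. The authors deposited log2 expression values for 17475 genes, with a formula that is not given in the sources used here. From the values, they are the log2 of x plus 1.0003, x being depth-scaled reads per gene length: 100% of 8224 low values were whole reads within 0.05. A gene's lowest value stands for 0 or at most 1 read. Python 3.11.15, numpy 2.4.6, pandas 2.3.3 and matplotlib 3.10.9 were used for levels and figures.

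Group means of the 4 groups were fitted with limma 3.58.1 in R 4.3.3 to the 11 libraries, with trended moderated variances, no filter and no mouse block. Tests were two-sided. The steps were tested on simulated data. No count model was run. TAMs and MTMs with the same number came from the same mouse, per the labels. Deviations from the group means correlated at 0.176, 0.0983, 0.211, 0.0379 and 0.0779 in mice 1 to 5, so a mouse block was tried as an alternative. Others were a pseudocount of 0.25, a minimum mean of 1, quantile normalization, median centring, untrended variances, only the groups compared, and each library left out.

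The 10 transcripts, the 13 marker lists (199 entries, 16 not measured, 4 matched by an older symbol) and the tests were chosen with earlier results of these data known. All 10 transcripts are named, with the 10 or 5 genes most like a member by Pearson's r, and from each list up to 3 genes with the smallest adjusted p in a comparison. The count over the B and plasma cell list is not reported here. Depth per library was estimated, and intervals and read limits cover counting error only.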

Additional observations from a re-analysis of the deposited data

Results flagged for a closer look

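For Cd3g and Nkg7 the difference between TAMs and MTMs had one sign in every MYC pair and the opposite sign in every control pair. The group differences of Cd3e, Lck, Cd8a and Gzmb were also of opposite sign, but not in every pair. Cd3d did not change sign, at 0.06 and 0.31 in the MYC pairs and 2.19, 0.84 and 1.08 in the control pairs. Cd3g was lower in TAMs than in MTMs in both MYC mice with both cell types, with differences of -0.12 and -0.98, and higher in TAMs in all 3 control mice (3.19, 0.12 and 1.42). Its difference of differences was -2.17 ± 0.72, which missed the threshold in limma (adjusted p = 0.256). Nkg7 was at -0.40 and -1.97 in the MYC pairs and 3.10, 0.77 and 2.07 in the control pairs, with a difference of differences of -3.28 ± 0.89 (adjusted p = 0.147). In MYC TAMs both genes reached at most 0.76, and only 2 MYC pairs exist. The sign in mouse 2 rested on few reads, 0 in TAMs and 4 in MTMs for Cd3g, and 0 and 10 for Nkg7. The groups hold 2 or 3 libraries, too few for a single library to be judged far from the others.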

How the results depend on the processing

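Of 13 called differences of a member, 6 passed under every alternative (Cd3d, Cd3g, Lck, Il7r, Gzmb and Nkg7 between MYC and control TAMs), and none of the 13 changed sign. Between MYC and control TAMs 9 members passed, 6 to 10 under the alternatives and 8 to 9 with a library left out. Fitting only the groups compared lost Cd3e (adjusted p = 0.0521), Cd8a (0.0626) and Cd4 (0.0533), and quantile normalization lost Cd4 (0.0706). Cd2 passed there with a pseudocount of 0.25 (0.0185), a minimum mean of 1 (0.0283) and without either MYC MTM library (0.0437 and 0.0442). The count of 2 for TAMs against MTMs in MYC mice became 0 with quantile normalization or only the groups compared, 1 with the fixed mouse block, and 0 to 2 with a library left out. The count of 1 in control mice became 2 with a minimum mean of 1, median centring or the random mouse block, 0 with only the groups compared, and 0 to 2 with a library left out. For MYC against control in MTMs the count of 1 became 0 with only the groups compared and 0 to 2 with a library left out. The difference of differences had 0 under every alternative.

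The mouse block changed no other call than these and Cd2 between MYC and control TAMs (adjusted p = 0.0475). A fixed block gives no test of genotype, since each mouse has 1 genotype. Signs changed only for differences that were not called. Cd2 had a difference of differences of -0.40 with a pseudocount of 0.25 and -0.27 to 1.11 with a library left out, and Cd4 had -0.18 with the fixed block and -0.34 to 0.49 with a library left out. Between MYC TAMs and MYC MTMs, Lck was at 0.047 with median centring and 0.061 with the fixed block, and Cd8a at 0.075 with median centring. With a library left out, Lck ranged from -0.38 to 0.14, Cd8a from -0.21 to 0.024, Gzmb from -1.26 to 0.038 and Cd3d from -0.035 to 0.19 there, and Nkg7 from -2.25 to 0.015 between MYC and control MTMs. The cause was not tested. Over all genes, calls between MYC and control TAMs numbered 2778, against 5029 with median centring and 1547 with only the groups compared; the lower share was 75.5%, 58.4% with quantile normalization and 30.1% with median centring. For TAMs against MTMs, calls in MYC mice numbered 784 (476 with the fixed block, 90 with only the groups compared), with 85.2% lower (70.1% with quantile normalization, 64.2% with median centring), and in control mice 414 (255 and 196). Calls numbered 108 between MYC and control MTMs (0 with only the groups compared) and 216 for the difference of differences (327 with a minimum mean of 1, 325 with the random block, 129 with median centring and 31 with the fixed block). A minimum mean of 1 leaves out Cd3e and Cd8a. Depth limits the MYC values, where 0 reads were taken to allow up to 3.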

Other observations

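Of 16 measured NK cell receptors, 2 rose and 5 fell in MYC TAMs relative to control TAMs, where 3.89% of all genes rose and 12% fell. Klra3, of the Ly49 family, rose by 5.56 ± 0.24 (limma, adjusted p = 2.30e-06) and was at 5.83, 5.82 and 5.27 in MYC TAMs, 3.32 and 3.64 in MYC MTMs, 0.04, 0.04 and 0.15 in control TAMs and 0.15, 0.82 and 0.76 in control MTMs. Klra9 rose by 2.22 ± 0.36 in TAMs (adjusted p = 0.00318) and by 2.85 ± 0.40 in MTMs (adjusted p = 0.0166). Ly49 genes are near-identical copies whose reads can be split, so which member was measured is uncertain. Klrb1b fell by 3.34 ± 0.31 (adjusted p = 0.000139) and Cd244 by 1.69 ± 0.22 (adjusted p = 0.00101) in MYC TAMs. Klrk1 fell by 1.11 ± 0.18 in MYC MTMs (adjusted p = 0.0355).

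Il2ra was at 0.10, 0.16 and 0.09 in MYC TAMs, 0.32 and 0.33 in MYC MTMs, 3.88, 3.87 and 2.88 in control TAMs and 0.59, 1.00 and 0.50 in control MTMs. Its difference between TAMs and MTMs depended on genotype (-3.05 ± 0.40, adjusted p = 0.0121), as did that of Il21r (-2.53 ± 0.26, adjusted p = 0.00551) and S1pr1 (-1.83 ± 0.31, adjusted p = 0.0278). Between MYC and control TAMs, 3.89% of all genes rose and 12% fell. Of the cell type lists, 3 of 17 measured macrophage genes rose and 6 fell, 3 of 11 neutrophil genes rose and 1 fell, 1 of 9 mast cell, basophil and eosinophil genes rose and 1 fell, 1 of 9 fibroblast genes fell, and 1 of 10 endothelial genes rose and 1 fell. The shares that fell among fibroblast, endothelial, neutrophil and mast cell, basophil and eosinophil genes were near the 12% of all genes that fell.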
